A study of Homo sapiens with 5 samples.

Results

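The antioxidant, glutathione and iron genes described here are 41 genes that code for the sensor and transcription factor of the oxidative stress response, the enzymes that make and use glutathione, the thioredoxin and peroxiredoxin enzymes, the enzymes that remove superoxide and hydrogen peroxide, the heme oxygenases, and the genes of ferritin and the transferrin receptor. They were taken by gene symbol from a table of 26485 genes, from a list drawn up by role with earlier results of these data known. All 41 were in the table, and 40 had enough reads to be tested. The remaining gene, GPX7, had 1 count in each of 4 libraries and 0 in the other.

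Poly-A RNA was sequenced from RPE1 cells, a human retinal pigment epithelial line immortalized with telomerase, after 18 h with DMSO, the solvent, or with doxorubicin, an anthracycline that blocks topoisomerase II. There were 2 libraries of DMSO-treated cells, 2 of cells given 0.2 µM doxorubicin and 1 of cells given 0.34 µM, and the question was which genes differ in expression between drug and solvent. The concentrations are those in the sample labels, since the written description of the treatment gives far higher values in the same unit. The study's methods call the libraries biological replicates, and nothing in the labels says that they come from separate cultures, so the p-values below measure only the spread between these libraries, which may be technical.

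Libraries held between 23773061 and 36725345 counts, with normalization factors between 0.975 and 1.04, and every tested member had at least 486 counts summed over the 5 libraries. Markers of the line were mixed. The pigment epithelium regulators MITF and OTX2 were present in every library, with 743 to 1503 and 601 to 887 counts. RPE65, the isomerase of the visual cycle, had 3 to 8 counts and RLBP1 0 to 3. The other pigment epithelium markers were also low, with LRAT at 1 to 25 counts, PMEL 5 to 46, SERPINF1 4 to 29, BEST1 14 to 142 and TYRP1 1 to 7. TYR, DCT, TTR and CRX had at most 5, 2, 1 and 1. The epithelial genes KRT8 and KRT18 had 8821 to 23990 and 6076 to 16701 counts, but CDH1 and EPCAM at most 4 and 1. The mesenchymal genes VIM, FN1 and CDH2 had at least 113302, 231823 and 7808. For PTPRC, an immune cell gene, the counts were 5 and 7 without the drug, against 25, 53 and 72 with it, whereas of other genes of cells that should be absent CD3E and HBB were at 0 in all 5 libraries, ALB had 0 to 4 counts and PECAM1 3 to 13. The part of PTPRC in the results below was not tested.

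As background, cells meet oxidants with overlapping systems. NRF2, the transcription factor encoded by NFE2L2, is bound by KEAP1 and degraded until oxidants or electrophiles modify KEAP1, and NRF2 then acts with small MAF proteins at antioxidant response elements in the promoters and enhancers of many of the genes listed here. Glutathione, made by glutamate-cysteine ligase and glutathione synthetase, is used by glutathione peroxidases and transferases and reduced again by glutathione reductase. Thioredoxin and its reductases keep peroxiredoxins active, and ferritin stores iron that would otherwise take part in forming radicals. Doxorubicin is an anthracycline quinone that can cycle between redox states and bind iron.

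Promoter sequences are given for the 5 members called by DESeq2 and for GCLM, a commonly used NRF2 target, as a view of where a response element or other motif lies relative to the start. Each runs 5′ to 3′ on the gene's own strand, from 250 bases before the RefSeq start to 50 bases after it, in GRCh38.p14. Capitals mark the letters of the motifs searched on both strands, namely the antioxidant response element core TGACNNNGC, the E-box CACGTG and the AP-1 site TGAGTCA. The GPX1 window, chr3:49358304-49358603 on the minus strand, holds an E-box 24 bases before the start. That of GSTP1, chr11:67583562-67583861 on the plus strand, holds a response element core 66 bases before the start that overlaps an AP-1 site. That of GCLM, chr1:93909381-93909680 on the minus strand, holds a response element core on the opposite strand 34 bases before the start. None of these letters is in the windows of FTL, chr19:48965059-48965358, GSTK1, chr7:143263191-143263490, and GPX8, chr5:55159921-55160220, all on the plus strand.
GPX1: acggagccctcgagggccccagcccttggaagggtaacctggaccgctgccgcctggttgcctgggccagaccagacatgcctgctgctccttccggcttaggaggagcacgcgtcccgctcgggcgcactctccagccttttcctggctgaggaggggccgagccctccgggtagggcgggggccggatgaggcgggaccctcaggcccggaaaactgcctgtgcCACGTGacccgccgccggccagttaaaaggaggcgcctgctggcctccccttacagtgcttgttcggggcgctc
GSTP1: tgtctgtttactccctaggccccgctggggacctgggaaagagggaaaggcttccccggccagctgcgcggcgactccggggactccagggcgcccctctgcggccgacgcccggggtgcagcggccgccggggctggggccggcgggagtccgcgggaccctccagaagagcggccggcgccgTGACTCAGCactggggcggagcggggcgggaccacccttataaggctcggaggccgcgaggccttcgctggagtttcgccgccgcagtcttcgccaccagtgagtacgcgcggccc
GCLM: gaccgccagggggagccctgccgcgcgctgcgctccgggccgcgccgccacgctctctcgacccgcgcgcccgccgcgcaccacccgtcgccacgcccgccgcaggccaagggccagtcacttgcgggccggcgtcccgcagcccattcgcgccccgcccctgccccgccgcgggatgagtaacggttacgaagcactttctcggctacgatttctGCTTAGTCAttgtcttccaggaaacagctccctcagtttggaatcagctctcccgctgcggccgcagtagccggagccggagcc
FTL: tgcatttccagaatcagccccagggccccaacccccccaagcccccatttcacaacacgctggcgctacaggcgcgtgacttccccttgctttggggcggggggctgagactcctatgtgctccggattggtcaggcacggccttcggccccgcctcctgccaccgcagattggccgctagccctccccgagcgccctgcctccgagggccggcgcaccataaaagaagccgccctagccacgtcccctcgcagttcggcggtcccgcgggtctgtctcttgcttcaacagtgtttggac
GSTK1: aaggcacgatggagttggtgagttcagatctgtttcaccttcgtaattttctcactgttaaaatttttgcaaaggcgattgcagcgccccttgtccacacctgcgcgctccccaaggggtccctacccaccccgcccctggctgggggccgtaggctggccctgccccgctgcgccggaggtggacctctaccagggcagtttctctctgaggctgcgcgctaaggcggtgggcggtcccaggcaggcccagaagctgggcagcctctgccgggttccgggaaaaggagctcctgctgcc
GPX8: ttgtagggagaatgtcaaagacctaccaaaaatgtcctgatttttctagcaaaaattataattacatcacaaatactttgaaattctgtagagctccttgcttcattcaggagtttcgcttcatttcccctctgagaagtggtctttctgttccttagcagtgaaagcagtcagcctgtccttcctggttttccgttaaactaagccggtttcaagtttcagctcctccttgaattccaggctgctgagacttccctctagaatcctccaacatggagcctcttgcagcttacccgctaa

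Among the members, 32 had such a window and 9 had none, and since some genes have several starts the 32 members gave 49 windows. The response element core was in 14.3% of the 49 windows and in 13.3% of all 35116 windows of the same length, and the members that held it were GCLM, GSTO1, GSTP1, KEAP1, MGST1 and TXNRD1. The E-box was in 10.2% of the members' windows and 7.26% of all windows, in GLRX2, GPX1, HMOX2, PRDX3 and PRDX4. The AP-1 site was in 4.08% and 4.95%, in GSTP1 and OSGIN1. A match to such short letters is a description of the sequence only.

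Among the 40 tested members, none passed an adjusted p of 0.01 in the edgeR comparison of the 3 doxorubicin libraries with the 2 DMSO libraries, a threshold that 4.02% of the 14187 genes tested passed (1.29% higher and 2.73% lower), and the smallest adjusted p among the members was 0.0199. At an unadjusted p under 0.05 there were 12 members, or 30%, beside 30.8% of all genes. DESeq2, which called 14.1% of the genes it tested at an adjusted p of 0.01, called 5 members, or 12.5%. These were GPX1, FTL, GSTP1 and GSTK1, all higher in doxorubicin, and GPX8, which was lower. DESeq2 called 6.37% of all genes higher and 7.72% lower, and limma voom, which called 3.71% of genes (1.12% higher and 2.59% lower), called none of the members. The same 5 members were those with an edgeR adjusted p under 0.05, which 13.6% of all genes reached (6.1% higher and 7.48% lower).

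Of the 40 tested members, 26 had a positive and 14 a negative log2 fold change, with a median of 0.18, against 0.01 over all genes tested. The median size of the change without regard to sign was 0.30 for the members and 0.38 for all genes, 27 members had a log2 fold change of under 0.5 in size, and only GPX1 and FTL exceeded 1. The libraries of the treated cells lay entirely above those of the control cells for 14 members and entirely below for 3, GPX8, GSR and TFRC, and they overlapped for 23. Groups without overlap were thus seen for 42.5% of members and 47.7% of all genes, with 35% of members higher against 24.3% of all genes, and 7.5% of members lower against 23.4%.

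**Figure D1:**
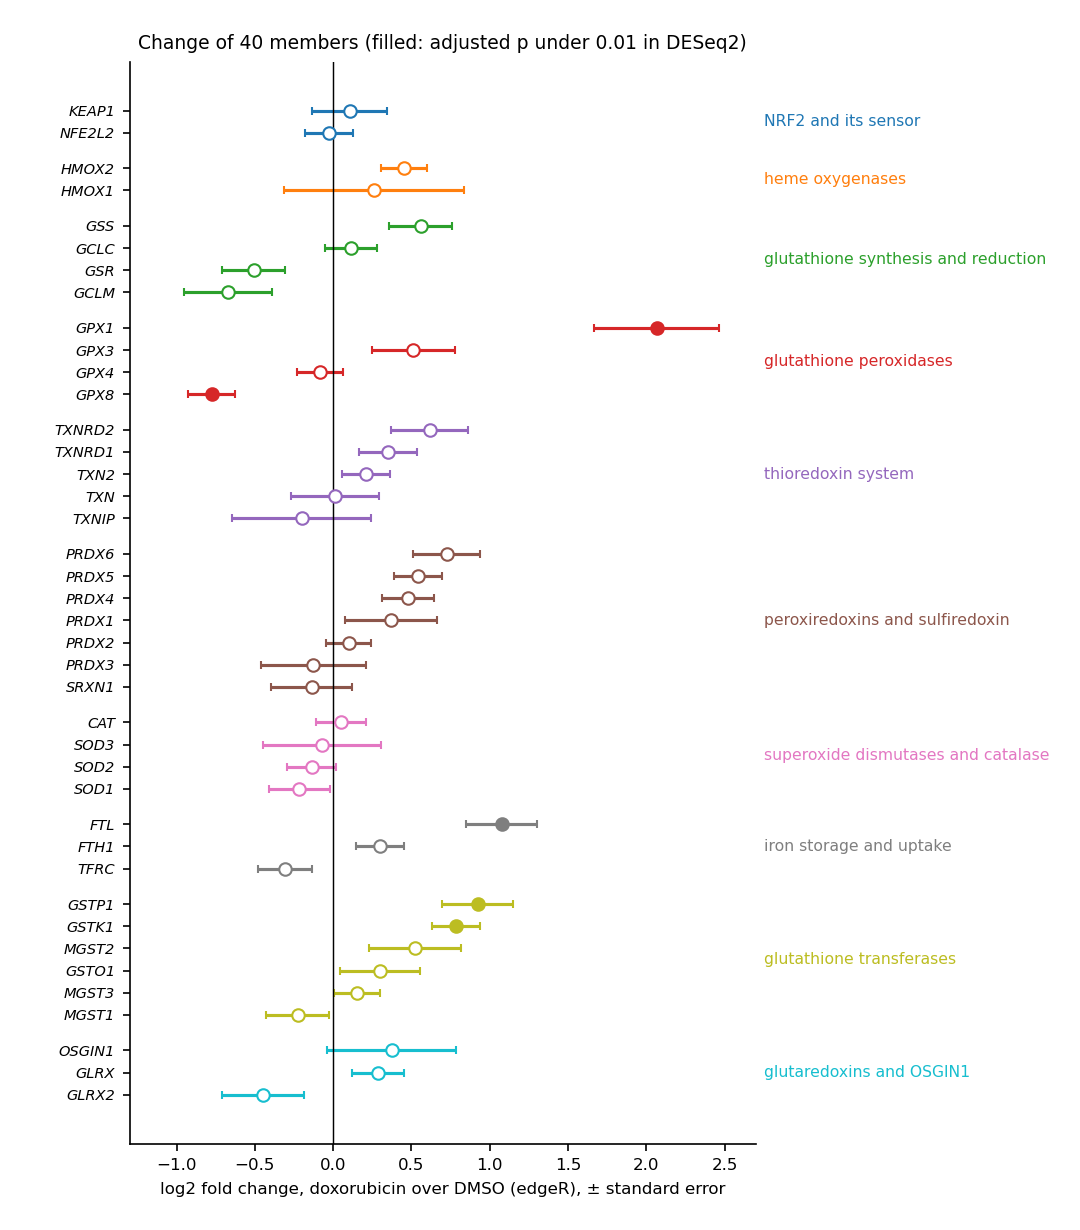
Log2 fold change of the 40 tested members, doxorubicin (3 libraries) over DMSO (2 libraries), grouped by role, from edgeR with the standard error as bars. Filled points are the 5 members with an adjusted p under 0.01 in DESeq2, of which GPX1 at 2.07 lies farthest to the right and GPX8 at -0.78 farthest to the left.

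The glutathione peroxidase genes, a family named for reducing peroxides at the expense of glutathione, held both the highest and the lowest of the members' log2 fold changes. GPX1, the abundant cytosolic selenoenzyme, lies on chromosome 3 at 49357176 to 49358353 in GRCh38, overlaps no other gene and has 2 named pseudogenes. Its level was 59.2 and 142 CPM in DMSO, 328 and 499 CPM at 0.2 µM and 434 CPM at 0.34 µM, where CPM are counts scaled to library size after TMM normalization. Every doxorubicin library was above both DMSO libraries, which themselves differed widely. In bulk RNA, fewer cells of a kind and less RNA per cell cannot be told apart. The means were 100.4 ± 58.2 CPM (SD, n = 2) in DMSO and 421 ± 86.6 CPM (SD, n = 3) in doxorubicin, a 4.19-fold difference with a log2 fold change of 2.07 (SE 0.40, edgeR adjusted p = 0.0201, DESeq2 adjusted p = 6.85e-07). The raw counts behind these levels were 1552 and 3613 counts in DMSO, 8480 and 12011 at 0.2 µM and 15763 at 0.34 µM. Leaving out DMSO replicate 2, the higher of the control libraries, moved the log2 fold change to 2.81, and leaving out DMSO replicate 1 moved it to 1.56.

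GPX8, a peroxidase of the endoplasmic reticulum membrane, was lower in doxorubicin. It lies on chromosome 5 at 55160171 to 55167297, where it overlaps CDC20B, and its level was 149.7 and 145 CPM in DMSO, 92.1 and 90.9 CPM at 0.2 µM and 75.1 CPM at 0.34 µM. All 3 treated libraries were below both controls, and the pairs of libraries were close to each other. The log2 fold change was -0.78 (SE 0.15, edgeR adjusted p = 0.0199, DESeq2 adjusted p = 0.000263), so the level in DMSO was 1.71 times that in doxorubicin. GPX4, which reduces lipid hydroperoxides in membranes and so protects from ferroptosis, had 178 and 161 CPM in DMSO, 171 and 145 CPM at 0.2 µM and 163 CPM at 0.34 µM. Its groups overlapped, with a log2 fold change of -0.08 (SE 0.15, edgeR adjusted p = 0.744). The plasma form GPX3 was low, at 2.63 and 2.90 CPM in DMSO, 4.10 and 3.53 CPM at 0.2 µM and 4.19 CPM at 0.34 µM, with groups that did not overlap and a log2 fold change of 0.51 (SE 0.26, edgeR adjusted p = 0.243).

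Because these genes encode related enzymes, their levels were also compared per kilobase of transcript, using the length of the representative transcript of each gene. GPX1 contributed 20.8% and 40.6% of the summed per-kilobase level of the 4 measured glutathione peroxidases in the DMSO libraries, 61.5% and 73.8% at 0.2 µM and 69.3% at 0.34 µM. The share of GPX4 was 66.0% and 48.9% in DMSO, 33.9% and 22.6% at 0.2 µM and 27.5% at 0.34 µM. GPX4 was thus the higher of these in both DMSO libraries and GPX1 in all 3 doxorubicin libraries. These are descriptions of the same 5 libraries, and no separate test was made of the shares.

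Of the iron genes, DESeq2 called the light chain of ferritin, and neither its heavy chain nor the receptor that brings iron in. FTL, the ferritin light chain, on chromosome 19 at 48965309 to 48966879, had 598 and 506 CPM in DMSO, 1233 and 898 CPM at 0.2 µM and 1357 CPM at 0.34 µM. Its treated libraries were all above the controls, with means of 552 ± 65.0 CPM (SD, n = 2) in DMSO and 1163 ± 238 CPM (SD, n = 3) in doxorubicin and a log2 fold change of 1.08 (SE 0.23, edgeR adjusted p = 0.0265, DESeq2 adjusted p = 0.000112). FTH1, the heavy chain with the ferroxidase centre, had 2045 and 1974 CPM in DMSO, 2402 and 2551 CPM at 0.2 µM and 2469 CPM at 0.34 µM. It too was higher in each treated library, by a log2 fold change of 0.30 (SE 0.15, edgeR adjusted p = 0.239). The FTL level per kilobase was 0.404 and 0.354 of that of FTH1 in DMSO, 0.709 and 0.486 at 0.2 µM and 0.759 at 0.34 µM. Reads of both are less certain than those of most genes, since RefSeq names 20 pseudogenes of FTL and 27 of FTH1, the sources do not say how reads with several matches were counted, and FTH1 overlaps LOC399900 and BEST1, which had 26 and 14 counts in DMSO, 86 and 30 at 0.2 µM and 142 at 0.34 µM.

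TFRC, the transferrin receptor, was 228 and 269 CPM in DMSO, 216 and 170.2 CPM at 0.2 µM and 217 CPM at 0.34 µM. The treated libraries were below both controls, and the log2 fold change was -0.31 (SE 0.17, edgeR adjusted p = 0.286).

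Glutathione transferases, which join glutathione to electrophiles, had a median log2 fold change of 0.41, and 5 of the 6 were positive. GSTP1, the pi-class enzyme, on chromosome 11 at 67583812 to 67586653, had 151 and 236 CPM in DMSO, 328 and 386 CPM at 0.2 µM and 385 CPM at 0.34 µM. The treated libraries all exceeded the controls, and the log2 fold change was 0.92 (SE 0.23, edgeR adjusted p = 0.0426, DESeq2 adjusted p = 0.00245). Without DMSO replicate 2 it was 1.27, and without DMSO replicate 1 it was 0.63. The reads of GSTP1 are exposed to 1 named pseudogene.

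GSTK1, the kappa-class enzyme of mitochondria and peroxisomes, on chromosome 7 at 143263441 to 143269115, overlaps the antisense gene TMEM139-AS1. Its level was 29.2 and 26.4 CPM in DMSO, 48.6 and 44.6 CPM at 0.2 µM and 50.5 CPM at 0.34 µM. The 3 treated libraries lay close together and above both controls, with a log2 fold change of 0.78 (SE 0.15, edgeR adjusted p = 0.0213, DESeq2 adjusted p = 0.000266). Of the remaining transferases, GSTO1 had a log2 fold change of 0.30, and the microsomal MGST1, MGST2 and MGST3 had -0.23, 0.52 and 0.15. For MGST2, leaving out DMSO replicate 1 or 2 gave 1.03 or 0.13. None of these passed in edgeR or DESeq2.

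**Figure D2:**
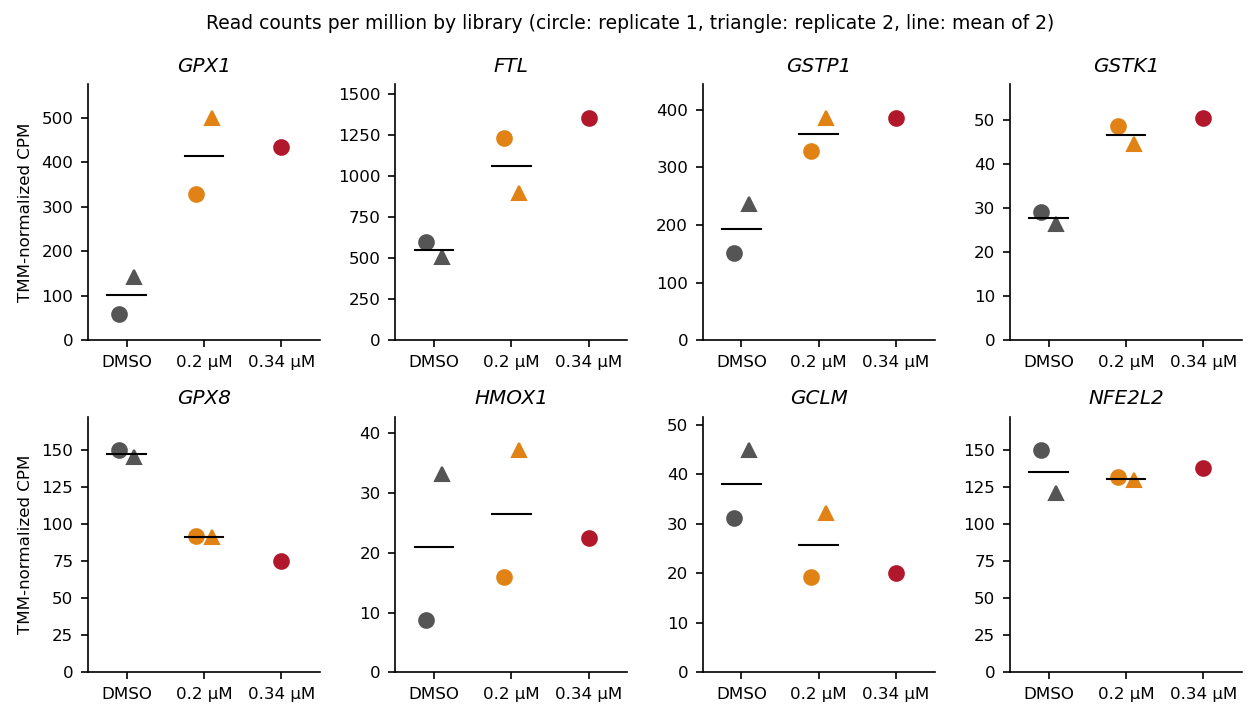
Level of 8 members in each of the 5 libraries (vertical, TMM-normalized CPM from 0) by condition, with circles for replicate 1, triangles for replicate 2 and a line at the mean of 2 libraries. For GPX1, FTL, GSTP1 and GSTK1 every doxorubicin point lies above both DMSO points, for GPX8 every one lies below, and for HMOX1, GCLM and NFE2L2 the points of the groups mix.

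Neither NRF2 itself nor its sensor differed detectably in RNA, though NRF2 is controlled mainly through its protein, which was not measured. NFE2L2 had 150.3 and 121 CPM in DMSO, 132 and 129.7 CPM at 0.2 µM and 138 CPM at 0.34 µM, and the DMSO libraries lay on both sides of the treated ones. Its log2 fold change was -0.03 (SE 0.15, edgeR adjusted p = 0.928). KEAP1 had 42.5 and 69.4 CPM in DMSO, 67.2 and 51.2 CPM at 0.2 µM and 62.2 CPM at 0.34 µM, again overlapping, with a log2 fold change of 0.11 (SE 0.24, edgeR adjusted p = 0.807).

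HMOX1, the inducible heme oxygenase that releases iron from heme and a widely used readout of oxidative stress, was 8.77 and 33.2 CPM in DMSO, 15.9 and 37.1 CPM at 0.2 µM and 22.4 CPM at 0.34 µM. The lowest and the second highest of these values were both from DMSO, and the log2 difference between the DMSO libraries, 1.91, was far larger than the log2 fold change of 0.26 (SE 0.58, edgeR adjusted p = 0.801). Replicate 2 was the higher library at 0.2 µM as well, by 1.22 on the log2 scale. A fit with replicate number as a block, without the 0.34 µM library, gave a log2 fold change of 0.50 (edgeR adjusted p = 0.241). The constitutive HMOX2 was 43.0 and 38.1 CPM in DMSO, 56.1 and 52.3 CPM at 0.2 µM and 58.0 CPM at 0.34 µM, higher in every treated library, with a log2 fold change of 0.45 (SE 0.15, edgeR adjusted p = 0.0907).

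The genes that make and recycle glutathione had log2 fold changes of both signs, with 2 of 4 positive and none called. GCLC, the catalytic subunit of glutamate-cysteine ligase, had 20.1 and 23.4 CPM in DMSO, 21.8 and 23.7 CPM at 0.2 µM and 25.05 CPM at 0.34 µM and a log2 fold change of 0.11 (SE 0.17, edgeR adjusted p = 0.697). GCLM, its modifier subunit, had 31.2 and 44.9 CPM in DMSO, 19.3 and 32.3 CPM at 0.2 µM and 20.2 CPM at 0.34 µM. Its lowest values were in doxorubicin, but the groups overlapped, and the log2 fold change was -0.67 (SE 0.28, edgeR adjusted p = 0.163). GSR, which returns oxidized glutathione to its reduced form, had 47.3 and 69.1 CPM in DMSO, 38.2 and 45.7 CPM at 0.2 µM and 38.9 CPM at 0.34 µM and was lower in every treated library, with a log2 fold change of -0.51 (SE 0.20, edgeR adjusted p = 0.145). GSS, which completes glutathione synthesis, had 37.0 and 53.8 CPM in DMSO, 60.6 and 72.1 CPM at 0.2 µM and 68.0 CPM at 0.34 µM and was higher in every treated library, with a log2 fold change of 0.56 (SE 0.20, edgeR adjusted p = 0.114). These values leaned on the control library kept. Without DMSO replicate 1 the log2 fold change was -0.92 for GCLM, -0.77 for GSR and 0.31 for GSS, and without DMSO replicate 2 it was -0.40, -0.23 and 0.84. The GCLC level per kilobase relative to that of GCLM was 0.834 and 0.673 in DMSO, 1.46 and 0.949 at 0.2 µM and 1.60 at 0.34 µM.

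In the thioredoxin system, TXNRD1, the cytosolic selenoenzyme that reduces thioredoxin, had 588 and 706 CPM in DMSO, 752 and 949 CPM at 0.2 µM and 766 CPM at 0.34 µM. Every treated library was above both controls, with a log2 fold change of 0.35 (SE 0.19, edgeR adjusted p = 0.257). TXNRD2, the mitochondrial form, had a log2 fold change of 0.62 (SE 0.25, edgeR adjusted p = 0.145), and leaving out DMSO replicate 1 or 2 gave 0.33 or 0.95, while thioredoxin itself, TXN, and mitochondrial TXN2 had 0.01 and 0.21. TXNIP, the inhibitor that binds thioredoxin, had 58.9 and 26.2 CPM in DMSO, 49.7 and 20.8 CPM at 0.2 µM and 40.4 CPM at 0.34 µM. Replicate 2 was the lower library in both DMSO and 0.2 µM, and the log2 fold change was -0.20 (SE 0.44, edgeR adjusted p = 0.799).

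Peroxiredoxins remove hydrogen peroxide with electrons from thioredoxin, and of the 6 of them and sulfiredoxin, which repairs them, 5 were positive, with a median log2 fold change of 0.37 over the 7. PRDX6, which uses glutathione, and PRDX5 had the lowest adjusted p of these. PRDX6 was 123 and 182 CPM in DMSO, 218 and 273 CPM at 0.2 µM and 264 CPM at 0.34 µM, with a log2 fold change of 0.72 (SE 0.22, edgeR adjusted p = 0.0709, DESeq2 adjusted p = 0.0205). PRDX5 was 117 and 97.4 CPM in DMSO, 163 and 147 CPM at 0.2 µM and 159 CPM at 0.34 µM, with a log2 fold change of 0.54 (SE 0.15, edgeR adjusted p = 0.0607, DESeq2 adjusted p = 0.0178). Both were higher in all 3 treated libraries, and leaving out DMSO replicate 1 or 2 gave a log2 fold change of 0.46 or 1.02 for PRDX6. PRDX4, the form of the secretory pathway, had a log2 fold change of 0.48, and PRDX1, PRDX2 and PRDX3 had 0.37, 0.10 and -0.13. SRXN1, the sulfiredoxin, had 34.9 and 63.7 CPM in DMSO, 43.5 and 48.9 CPM at 0.2 µM and 42.0 CPM at 0.34 µM and overlapping groups, with a log2 fold change of -0.14 (SE 0.26, edgeR adjusted p = 0.760).

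Of the enzymes that remove superoxide and hydrogen peroxide directly, none was called and 3 of 4 had a negative log2 fold change. SOD2, the mitochondrial superoxide dismutase, had 36.8 and 39.0 CPM in DMSO, 31.2 and 37.6 CPM at 0.2 µM and 34.5 CPM at 0.34 µM and a log2 fold change of -0.14 (SE 0.16, edgeR adjusted p = 0.601). Cytosolic SOD1, extracellular SOD3 and catalase, CAT, had log2 fold changes of -0.22, -0.07 and 0.05, and none of these 4 genes had groups apart. The glutaredoxins GLRX and GLRX2, which use glutathione to reduce protein disulfides, had 0.29 and -0.45, and OSGIN1, an oxidative stress-induced growth inhibitor, had 0.37, with none called.

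Many members differed as much between the control libraries as between the groups. The treatment change was smaller than the difference between the 2 DMSO libraries for 20 of 40 members, or 50%, and for 49.0% of all genes tested. The median absolute log2 difference between the DMSO libraries was 0.45 over the members and 0.36 over all genes, and between the 0.2 µM libraries it was 0.24 and 0.29. The control libraries were over 1 log2 unit apart for 5 members. HMOX1 at 1.91, OSGIN1 at 1.37, GPX1 at 1.26 and PRDX3 at 1.21 were higher in replicate 2, and TXNIP at -1.16 was higher in replicate 1. Of these, GPX1 alone had a treatment change larger than its control difference.

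**Figure D3:**
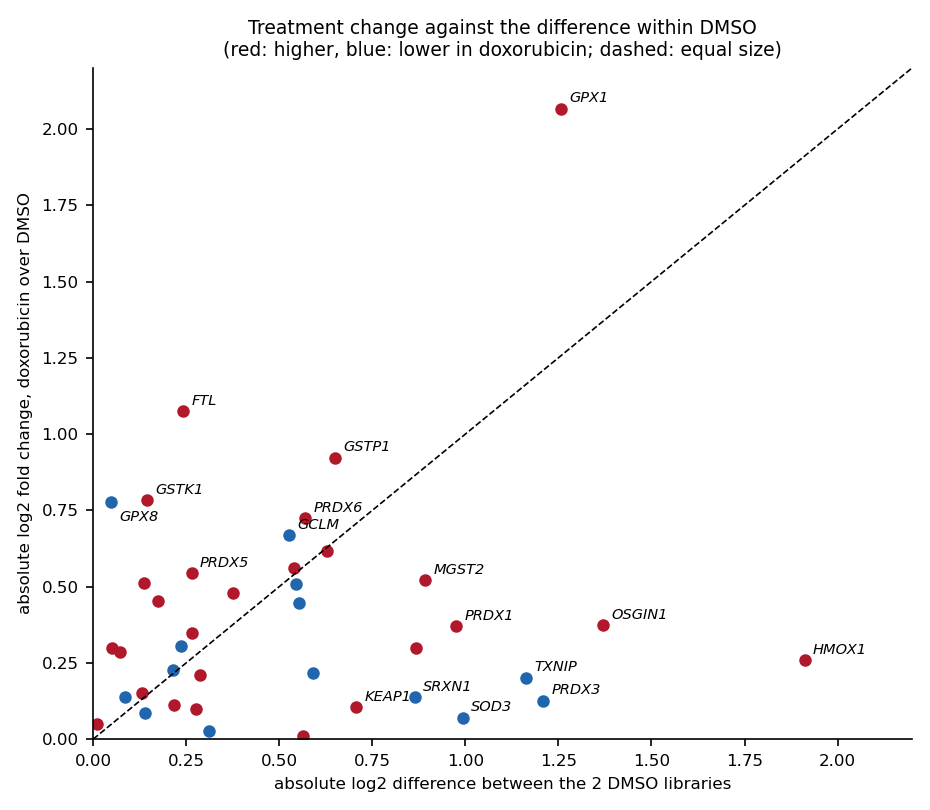
Absolute log2 fold change of each tested member, doxorubicin over DMSO (vertical), against the absolute log2 difference between the 2 DMSO libraries (horizontal), with members higher in doxorubicin in red and lower ones in blue. On the dashed line the 2 are equal, 20 of the 40 members lie below it, and FTL, GSTK1 and GPX8 lie far above it with control differences of under 0.25.

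The members were also placed in order by their level per kilobase. FTH1 and FTL were the first and second of the 40 members in both conditions, with means of 1671 and 633 CPM per kilobase in DMSO and 2056 and 1335 in doxorubicin, followed by GSTP1 with 261 ± 81.6 (SD, n = 2) and 495 ± 44.5 (SD, n = 3). In DMSO the level of GSTP1 was within its spread of that of TXN, 261 ± 71.3, and of PRDX1, 224 ± 103. GPX1 went from rank 12, with 112 ± 64.7, to rank 4, with 468 ± 96.3, next to GSTP1, from which its spread did not separate it. GPX8 went from rank 20 to rank 27. GPX3, with a mean of 1.73, and OSGIN1, with 2.16 ± 1.38, were the lowest in DMSO and were not separated beyond their spread. The level of SOD2 per kilobase depends on a representative transcript of 14167 bases, much of which may not be used in these cells, so it may be too low.

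**Figure D4:**
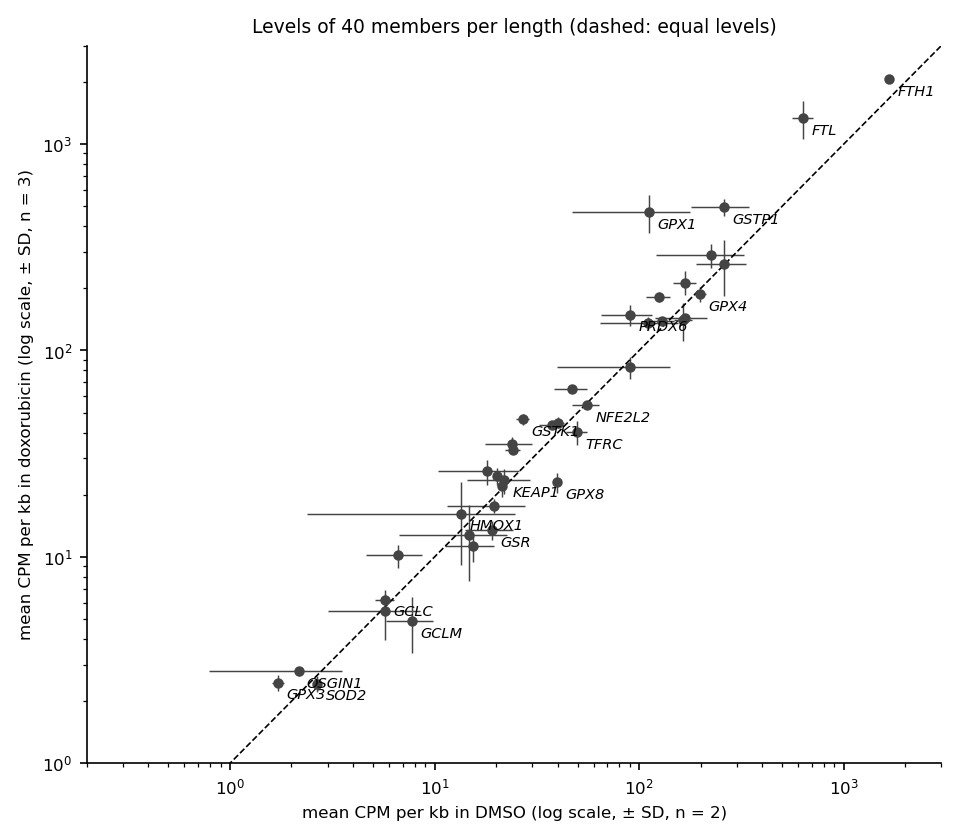
Mean level of each tested member per kilobase of transcript in DMSO (horizontal, n = 2) and in doxorubicin (vertical, n = 3), in CPM per kb on log scales with the SD as bars. FTH1 and FTL are highest in both, GPX1 is the member farthest above the dashed line of equal levels, and GPX8 lies below it.

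No member was called between the doses in edgeR at an adjusted p of 0.01 (0% of all genes) or in DESeq2. None reached an unadjusted p of 0.05 either, which 0.155% of all genes did, and the smallest among the members was 0.283 (edgeR, the lone 0.34 µM library taking its spread from the other groups). The log2 difference between 0.34 and 0.2 µM ran from -0.38 for TXN to 0.35 for FTL, with a median size of 0.11. The lone 0.34 µM library is numbered replicate 1, so in this contrast dose and replicate number cannot be told apart. TXN was 159 and 261 CPM in replicates 1 and 2 at 0.2 µM and 161 CPM at 0.34 µM. FTL was 1233 and 898 CPM in replicates 1 and 2 at 0.2 µM and 1357 CPM at 0.34 µM. Set side by side, the log2 fold changes over the same DMSO libraries at 0.2 and 0.34 µM were 2.04 and 2.11 for GPX1, 0.95 and 1.30 for FTL, 0.89 and 0.99 for GSTP1, 0.74 and 0.86 for GSTK1 and -0.69 and -0.97 for GPX8. With 1 library at 0.34 µM, which gave no spread of its own, the dose contrast could miss large differences as well as small ones. No conclusion about dose is drawn from the absence of calls.

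Related genes of the pathway were counted in the same fit. Of 107 listed genes 106 were found in the table and 97 were tested, and in edgeR 11 were higher and 1 lower at an adjusted p of 0.01, which is 12.4% beside the 4.02% of all genes. DESeq2 called 17 higher and 6 lower, or 23.7% beside 14.1% of all genes, and the median log2 fold change was 0.13. The edgeR count of 11 was 1 without DMSO replicate 1, 0 without DMSO replicate 2, 8 and 3 without replicates 1 and 2 at 0.2 µM and 5 without the 0.34 µM library, and the lower gene was called in none of these fits. Most of the edgeR calls were in the list of p53-linked redox genes, which was chosen with earlier results of these data known, where 7 of 10 were higher with a median log2 fold change of 2.30. Among them were the sestrins SESN1 and SESN2, stress-induced proteins that restrain mTOR signalling, with log2 fold changes of 2.33 (SE 0.23, edgeR adjusted p = 0.00208) and 2.38 (SE 0.17, edgeR adjusted p = 0.000891). On the log2 scale TIGAR, which diverts glucose to NADPH production, rose by 2.24 (SE 0.22, edgeR adjusted p = 0.00211). The quinone oxidoreductase gene TP53I3 rose by 3.51 (SE 0.40, edgeR adjusted p = 0.00348), the p53-inducible TP53INP1 by 2.27 (SE 0.27, edgeR adjusted p = 0.00422) and the mitochondrial glutaminase GLS2 by 3.67 (SE 0.52, edgeR adjusted p = 0.00747). PRODH, proline dehydrogenase, had 1 and 2 counts in DMSO, 160 and 389 at 0.2 µM and 892 at 0.34 µM.

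The 25 tested genes of the list of NRF2 targets and NADPH supply had a median log2 fold change of 0.09, and in edgeR TKT and BLVRB passed, or 8% beside 4.02% of all genes. DESeq2 called 4 higher and 2 lower, or 24% beside 14.1%. Beside TKT and BLVRB these were AKR1B10, SQSTM1, CBR3 and UGDH, named after their values were seen. TKT, the transketolase of the pentose phosphate pathway, rose on the log2 scale by 1.20 (SE 0.16, edgeR adjusted p = 0.00602), and BLVRB, which reduces biliverdin and flavins, by 1.22 (SE 0.18, edgeR adjusted p = 0.00784). AKR1B10, an aldo-keto reductase, had the largest change of the list, with 48 and 39 counts in DMSO, 157 and 274 at 0.2 µM and 553 at 0.34 µM and a log2 fold change of 2.697 (SE 0.44, edgeR adjusted p = 0.0121, DESeq2 adjusted p = 2.40e-08). SQSTM1, the autophagy receptor p62 that binds KEAP1, had a log2 fold change of 1.04 (SE 0.20, edgeR adjusted p = 0.0200, DESeq2 adjusted p = 3.65e-05), and both were above DMSO in every treated library. CBR3, a carbonyl reductase, and UGDH, which makes UDP-glucuronate, were lower, with log2 fold changes of -1.37 (DESeq2 adjusted p = 0.00204) and -0.70 (DESeq2 adjusted p = 0.00131). NQO1, the quinone reductase often used as an NRF2 readout, had 230.1 and 448 CPM in DMSO, 291 and 529 CPM at 0.2 µM and 329 CPM at 0.34 µM, and the log2 fold change was 0.18 (SE 0.36, edgeR adjusted p = 0.781). SLC7A11, the cystine transporter that feeds glutathione synthesis, had 66.2 and 119 CPM in DMSO, 33.6 and 61.3 CPM at 0.2 µM and 37.4 CPM at 0.34 µM, and the log2 fold change was -1.07 (SE 0.33, edgeR adjusted p = 0.0810).

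In the other lists at most 1 gene each passed in edgeR, to be read beside 4.02% of all genes in edgeR and 14.1% in DESeq2. MAFK, a small MAF partner of NRF2, had a log2 fold change of 1.48 (SE 0.22, edgeR adjusted p = 0.00861) and was 1 of 7 tested partners and regulators, also the only 1 called by DESeq2. GGCT, which breaks down gamma-glutamyl peptides from glutathione, fell by 1.39 on the log2 scale (SE 0.17, edgeR adjusted p = 0.00422) and was 1 of 19 genes of glutathione turnover and other transferases, or 5.26%. DESeq2 called 2 of these 19 higher, GGT7 and GSTZ1, and 3 lower, GGCT, GSTCD and GLO1, or 26.3%. ISCU, the scaffold on which iron-sulfur clusters are built, rose on the log2 scale by 1.26 (SE 0.18, edgeR adjusted p = 0.00761) and was 1 of 18 iron genes, or 5.56%. DESeq2 called 2 iron genes higher and 1 lower, or 16.7%. Beside ISCU these were the iron exporter gene SLC40A1, with a log2 fold change of 0.96 (SE 0.26, edgeR adjusted p = 0.0540, DESeq2 adjusted p = 0.00729), and TFR2, a second transferrin receptor, with 48 and 48 counts in DMSO, 11 and 3 at 0.2 µM and 20 at 0.34 µM and a log2 fold change of -2.29 (SE 0.56, edgeR adjusted p = 0.0413, DESeq2 adjusted p = 0.00627). None of the 6 tested lipid peroxidation genes passed in edgeR, where 2 had an unadjusted p under 0.05, and DESeq2 called SAT1 higher. None of the 12 other selenoprotein genes passed in edgeR or DESeq2, and 1 had an unadjusted edgeR p under 0.05, beside 30.8% of all genes. The genes called by DESeq2 alone were named after their values were seen.

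**Figure D5:**
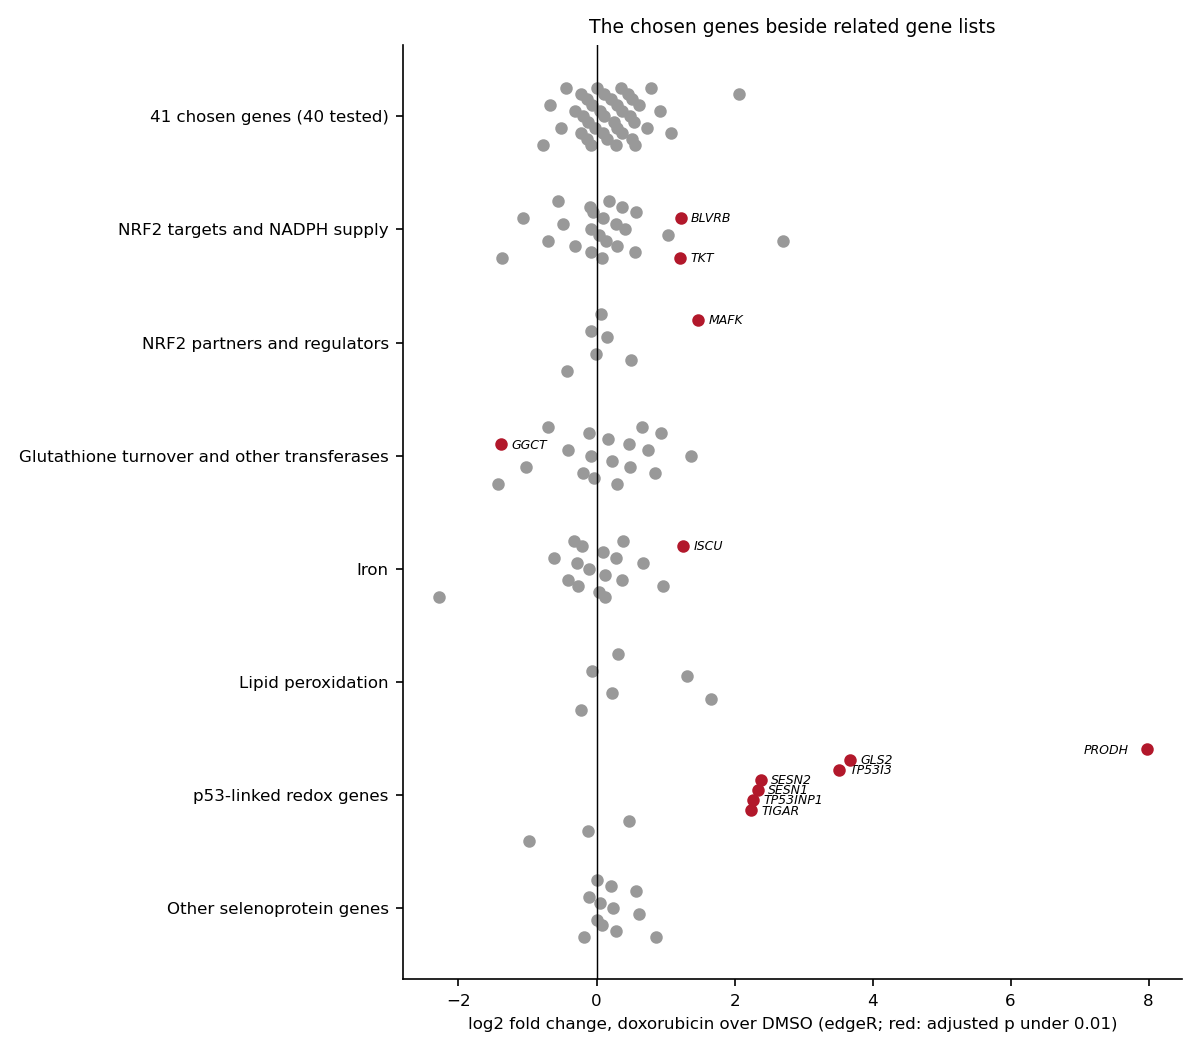
Log2 fold change of the 40 tested members and of the related genes by list, doxorubicin over DMSO in edgeR, with genes at an adjusted p under 0.01 in red and named. The members hold no red point, and 7 of the 12 red points of the related lists lie in the row of p53-linked redox genes. The position of PRODH rests on 1 and 2 counts in DMSO and is not a measured fold.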

How the data were processed

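RNA-seq counts per gene were deposited by the authors for 5 libraries of RPE1 cells (2 DMSO, 2 at 0.2 µM and 1 at 0.34 µM doxorubicin, 18 h). Per the labels and methods, poly-A RNA was prepared with a stranded kit, sequenced in pairs, aligned to hg38 with STAR and counted with featureCounts. For tool versions, strand setting and reads with several matches, details were not given in the sources used here. A table of the study's own comparison (mean normalized counts, log2 fold changes and p-values) was not used.

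Counts were tested with edgeR 4.0.16 in R 4.3.3, with TMM normalization, a filter on low counts (minimum count 10, minimum total 15), a quasi-likelihood F test of 3 doxorubicin against 2 DMSO libraries as in the study's pooled design, and Benjamini-Hochberg adjustment over 14187 genes, at a threshold of 0.01. The study used DESeq2. Here DESeq2 1.42.0 and limma voom 3.58.1 were alternatives. Others were DESeq2 size factors, no filter, 0.2 µM against DMSO in a fit of 3 conditions and leaving out each library. The last were a replicate block without the 0.34 µM library and a threshold of 0.05. The doses were compared in a fit of 3 conditions. CPM used TMM, and log2 CPM in plots a prior count of 2. The SE is the absolute log2 fold change over the square root of F. Scripts were tested on simulated counts.

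The members and lists were chosen with earlier results of these data known. Values in every library were given for members with an edgeR adjusted p under 0.05 or called by DESeq2, the 3 largest changes in each direction and a preset list of central genes, with GPX3, GSS, HMOX2, PRDX5 and PRDX6 added after their values were seen. Of the related lists, NQO1, SLC7A11 and the 10 genes with the smallest adjusted p were named, 1 further preset gene and 1 marker are not reported here, and BLVRB, MAFK and genes called by DESeq2 were added to complete the counts. Symbols were matched to RefSeq (GRCh38.p14) for positions and promoters, and transcript lengths came from GENCODE. Of the 107 related genes 8 were found by an older symbol.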

Additional observations from a re-analysis of the deposited data

How the results depend on the processing

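Of the 40 members, 25 kept their direction in all 11 alternatives. The count of members higher at an adjusted p of 0.01, 0 in edgeR, was 4 in DESeq2, 1 with no filter on low counts (GPX1), 3 with a replicate block on the 4 libraries without 0.34 µM (GPX1, FTL and GSTP1) and 4 at a threshold of 0.05, and 0 to 0 when 1 library was left out. The count lower, 0, was 1 in DESeq2 and 1 at a threshold of 0.05. The related genes higher, 11, became 17 in DESeq2, 5 for 0.2 µM against DMSO in the fit of 3 conditions and 17 at 0.05. They were 8 and 3 without replicates 1 and 2 at 0.2 µM and 5 without the 0.34 µM library. Those lower, 1, became 6 in DESeq2, 2 with no filter and 0 for 0.2 µM against DMSO in the fit of 3 conditions. They were 5 with that block and library choice, 6 at 0.05 and 0 when 1 doxorubicin library was left out. The cause was not tested, except that leaving out a library leaves fewer samples. The median log2 fold change over the members ranged from 0.12 to 0.28 when 1 library was left out. Under the same setting the direction of the log2 fold change reversed, between a lowest and a highest value, for NFE2L2 (-0.19 to 0.13), KEAP1 (-0.21 to 0.49), HMOX1 (-0.42 to 1.495), GCLC (-0.00065 to 0.21), TXN (-0.26 to 0.30), TXNIP (-0.68 to 0.49), PRDX1 (-0.045 to 0.92), PRDX2 (-0.042 to 0.23), PRDX3 (-0.62 to 0.58), SRXN1 (-0.52 to 0.34), SOD1 (-0.50 to 0.10), SOD3 (-0.50 to 0.51), CAT (-0.018 to 0.14), GSTO1 (-0.079 to 0.78) and OSGIN1 (-0.17 to 1.22). TXN was also reversed in DESeq2 (-0.0018) and PRDX3 with the replicate block and without the 0.34 µM library (0.074). No dose comparison called a member in any alternative run.

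DMSO and 0.2 µM libraries share replicate numbers, but with 2 pairs and no label of a shared batch the numbers were not taken as pairs. Across genes, the replicate difference in DMSO and that in 0.2 µM had a Pearson r of 0.53 (14187 genes, which are not independent replicates). Over the 40 tested members it was 0.68, and for 32 of them the difference had the same sign in both conditions. On those 4 libraries the replicate block raised the edgeR calls from 178 to 1249 genes, and GPX1, FTL and GSTP1 had edgeR adjusted p values of 1.76e-06, 0.0049 and 0.00723. The spread was estimated within 2 control and 3 treated libraries. At least 486 counts per tested member, summed over the libraries, stood behind the values.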

Other observations

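Some genes of the related lists varied more between libraries of 1 condition than between conditions. They were chosen after their values were seen. GSTM3, a mu-class glutathione transferase, had 394 and 29 counts in DMSO, 412 and 29 at 0.2 µM and 611 at 0.34 µM. GSTM4, of the same class, had 365 and 117 counts in DMSO, 332 and 165 at 0.2 µM and 465 at 0.34 µM. In both genes replicate 2 was the lower library within DMSO and within 0.2 µM, and the log2 fold changes of doxorubicin over DMSO were 0.49 (SE 1.20, edgeR adjusted p = 0.821) and 0.23 (SE 0.50, edgeR adjusted p = 0.796). The mu-class genes resemble each other in sequence, and reads with several matches could have been shared between them, which was not tested. SELM, a selenoprotein gene outside this class, was also lower in replicate 2. It had 180 and 34 counts in DMSO, 242 and 27 at 0.2 µM and 283 at 0.34 µM. DIO2, a selenoenzyme that activates thyroid hormone, had 336 and 65 counts in DMSO, 231 and 194 at 0.2 µM and 265 at 0.34 µM, and its DMSO libraries enclosed every treated value in CPM.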
